A study of Mus musculus with 15 samples.

Results

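Regions that were enriched for the histone variant H3.3 but carried no called H3K27ac or H3K36me3 region in wild type cells were examined in mouse bone marrow-derived macrophages (BMDMs). They were chosen by their calls in 6 CUT & RUN libraries. The 2 H3.3-HA region lists were merged on chromosomes 1 to 19 and X, merged regions overlapped in both replicates were kept, and those that met any region of the 2 WT H3K27ac or 2 WT H3K36me3 libraries by at least 1 bp were removed. Of 27642 shared H3.3-HA regions, 5078 (18.4%) met the rule and covered 7.04 Mb. They are called H3.3-HA-only regions here. Of the 22564 other shared regions, 12631 overlapped H3K27ac alone, 2029 overlapped H3K36me3 alone and 7904 overlapped both marks.

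In CUT & RUN an antibody brings a nuclease to the protein of interest, and the DNA cut free is sequenced. The H3.3-HA cells came from knock-in mice whose H3f3b gene, one of the pair that encode H3.3, carried an HA tag, so H3.3 made from H3f3a was not measured. The marks were profiled in WT cells, with floxed H3f3a and H3f3b and no Cre, and in H3.3 cKO cells, which also carried Cre under the LysM (Lyz2) promoter and so lose the genes only as myeloid cells develop. All mice were C57BL/6, of both sexes and 8 to 10 weeks old, and their bone marrow was cultured in L929 conditioned medium for 6 to 8 days. Each of the 5 groups had 2 libraries. Those of the marks were named as biological replicates, and those of H3.3-HA only as H3.3_HA1 and H3.3_HA2. The labels do not say whether the 2 libraries of a group came from separate mice.

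H3.3 differs from the canonical H3 proteins in that it is placed into chromatin throughout the cell cycle, in active genes and enhancers by the chaperone HIRA and at telomeres and silent repeats by ATRX and DAXX. H3K27ac is the acetyl mark of active enhancers and promoters. H3K36me3 is laid down by SETD2 as RNA polymerase II transcribes, and fills the bodies and 3′ ends of expressed genes. A region with H3.3 and neither mark can belong to chromatin of several kinds.

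The lists hold positions of regions and no heights, so a missing call does not show that a mark was absent. The H3.3-HA libraries had 6951296 and 5365319 tags, and the other 8 libraries had between 14027132 and 29988098. At the 15 macrophage marker genes, a 1-kb window around the start site met an H3.3-HA region in 80.0% of genes in either replicate and a WT H3K27ac region in 73.3% and 60.0%. At the 77 ribosomal protein genes, which all cells transcribe, the WT H3K27ac share was only 55.8% and 51.9%, against 84.4% and 88.3% in the libraries labelled cKO. How far calls missed in the WT libraries add to the H3.3-HA-only regions was not tested. The deletion itself could not be checked, since the lists do not show reads over single exons. The paper reports it by genomic PCR, qRT-PCR, RNA-seq and western blot. It describes H3f3b deletion as variable, complete in some cKO samples and partial in others. H3f3b (chr11:116021912-116027962) held 1446 and 1461 called bp in the WT H3K27ac libraries and 3351 and 4453 in the libraries labelled cKO, and neither H3f3a nor H3f3b contained an H3.3-HA-only region.

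The kinds of DNA that make up these regions are shown by the 200 bases at the centre of 4 of them, picked by fixed rules of width, with matches to the consensus motifs searched here in capitals (plus strand, GRCm38/mm10). Nyap1 is the widest region at a promoter, at chr5:137741313-137741512, where 69% of bases were G or C and 19 CpG dinucleotides stood. Ywhaz names the widest intergenic region, at chr15:36764661-36764860, with 37% G or C, 1 CpG and a match to the C/EBP motif. Csf2ra names the widest with an AP-1 match near its centre, at chr19:61222141-61222340, where the repeat annotation of the genome masked 116 of the 200 bases. Comtd1 names the widest with a CTCF match within 250 bp of its centre, shown at chr14:21853722-21853921 for the centre and chr14:21853994-21854065 for the bases around the match, whose last capitals are a GAAANNGAA match on the minus strand.
Nyap1 centre: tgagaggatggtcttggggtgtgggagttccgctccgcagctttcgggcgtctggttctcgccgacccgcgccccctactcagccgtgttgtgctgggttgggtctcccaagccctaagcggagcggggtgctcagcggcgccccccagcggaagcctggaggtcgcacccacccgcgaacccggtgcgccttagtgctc
Ywhaz centre: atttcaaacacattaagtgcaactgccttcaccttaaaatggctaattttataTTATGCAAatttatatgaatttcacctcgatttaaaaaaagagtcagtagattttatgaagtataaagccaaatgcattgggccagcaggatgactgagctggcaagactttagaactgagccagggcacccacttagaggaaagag
Csf2ra centre: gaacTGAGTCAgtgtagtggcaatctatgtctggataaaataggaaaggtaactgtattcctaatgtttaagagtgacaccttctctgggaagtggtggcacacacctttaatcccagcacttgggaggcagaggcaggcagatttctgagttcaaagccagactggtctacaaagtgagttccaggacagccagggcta
Comtd1 centre: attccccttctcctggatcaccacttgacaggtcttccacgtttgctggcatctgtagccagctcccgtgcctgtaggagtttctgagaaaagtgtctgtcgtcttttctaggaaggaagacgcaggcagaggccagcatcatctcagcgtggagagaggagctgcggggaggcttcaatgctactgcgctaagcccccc
Comtd1 around the CTCF match: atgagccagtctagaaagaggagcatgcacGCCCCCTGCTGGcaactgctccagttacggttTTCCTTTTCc
The sequences range from a CpG-dense promoter to AT-rich and partly repetitive intergenic DNA.

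The rule cuts through a continuum rather than a gap. Among the other shared regions, 19092 (84.6%) met WT H3K27ac replicate 1 and 17984 (79.7%) replicate 2, and 38.7% and 40.5% met the H3K36me3 replicates. Just inside the rule, a region of 1443 bp at the promoter of Dgka, a diacylglycerol kinase (chr10:128730935-128732377), touched a WT H3K36me3 region without sharing a base, as did a 2687-bp region near Ppia, which encodes cyclophilin A (chr11:6406479-6409165). A 936-bp intronic region of Hivep1 (chr13:42152721-42153656) lay 1 bp from a WT H3K27ac region. Just outside it, regions near Ptprj (chr2:90580594-90583944), in Ints3 (chr3:90412174-90413034) and near Klhl25 (chr7:75783473-75784464) shared a single base with a WT region. In all, 122 H3.3-HA-only regions lay within 100 bp of a WT region and 165 other regions were overlapped by at most 100 bp. Of the other shared regions, 3840 (17.0%) had under 50% of their length covered.

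The H3.3-HA-only regions were narrow. Their median width was 1182 bp (quartiles 897 and 1659.75, range 502 to 7889), against 1855 bp for the other shared regions. Within them the median called length was 780.5 bp in H3.3-HA replicate 1 and 866 bp in replicate 2, so the merged extent was wider than either call, and the bases called in both replicates made up a median of 51.2% of it (52.7% in the other regions). Replicate 2 was the wider call in 2734 regions and replicate 1 in 1943. Width bears on the rule itself, because a wide region meets another region more often. Of the 5118 shared regions under 1 kb, 34.6% were H3.3-HA-only (95% Wilson interval 33.4 to 35.96, counting error only, as for every interval here), and of the 1385 of at least 5 kb only 17 (1.23%, 0.768 to 1.96) were. The intergenic share and the cKO calls are therefore also compared by width. Except for the cKO calls, comparisons with the other shared regions are descriptions with no test, since the WT libraries defined both classes and only 2 H3.3-HA libraries stand behind them.

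**Figure D1:**
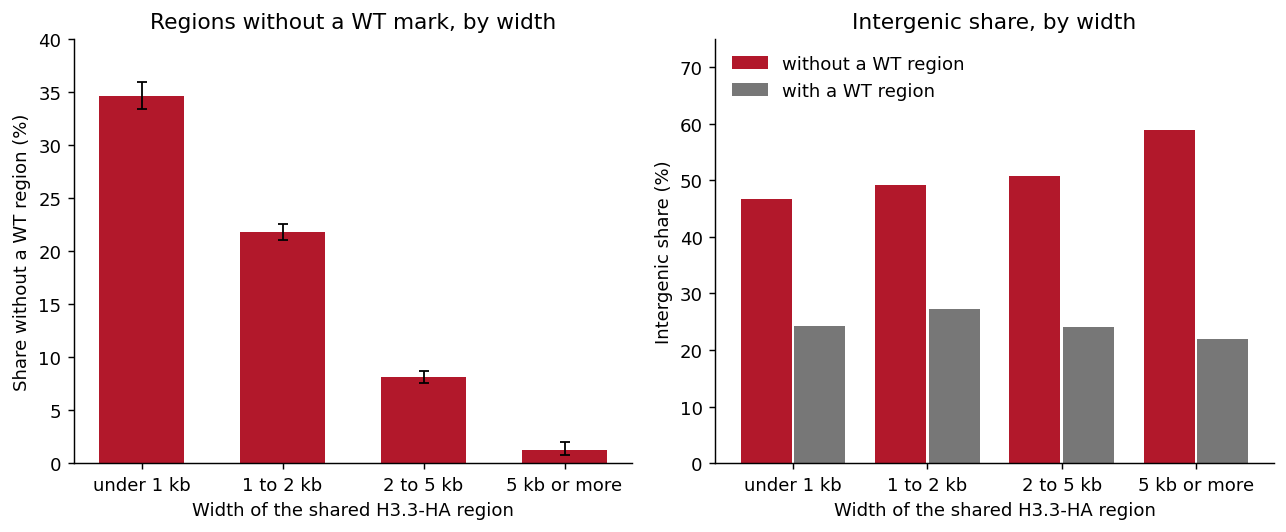
Left, share of the shared H3.3-HA regions without a WT H3K27ac or H3K36me3 region by width class, with 95% Wilson intervals, falling from 34.6% under 1 kb to 1.23% at 5 kb or more. Right, intergenic share of regions without (red) and with (grey) a WT region in each width class, higher without one in all 4 classes.

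Their position differed most in the intergenic share. By the midpoint, 2470 regions (48.6%, 47.3 to 50.02) were intergenic, against 25.2% of the other shared regions and 38.3% (37.5 to 39.2) of those with H3K27ac alone. Introns held 1840 (36.2%) against 55.2%, promoter-TSS windows (from 1 kb before a start site to 100 bp after it) 456 (8.98%) against 7.30%, exons 136 (2.68%) against 4.77% and TTS windows at gene ends 176 (3.47%) against 7.53%. Shared regions with H3K36me3 alone, the mark of transcribed gene bodies, were the opposite, with 26.0% at a TTS and 18.4% intergenic. The intergenic share was higher in every width class. It was 46.8% against 24.2% under 1 kb, 49.2% against 27.3% at 1 to 2 kb, 50.8% against 24.0% at 2 to 5 kb, and 58.8% against 21.9% above that, the last from 17 regions. With all annotated genes in place of protein-coding ones the intergenic share was 39.6%, since 458 of the intergenic regions (18.5%) lay in noncoding genes.

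**Figure D2:**
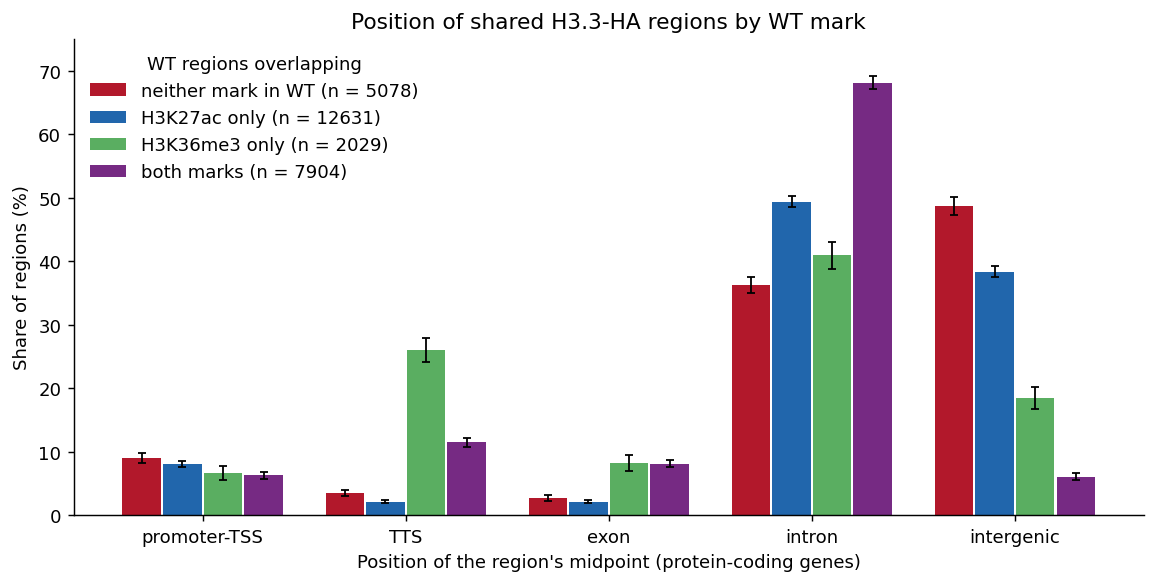
Share of shared H3.3-HA regions in each position class (percent, 95% Wilson intervals), split by the WT marks that overlap them. The regions without either mark (red) had the highest intergenic share, 48.6%, and a promoter-TSS share of 8.98%.

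The widest H3.3-HA-only region, 7889 bp (chr7:19088605-19096493), covered the end of Dmpk, the kinase gene of myotonic dystrophy, and ran into its neighbour Six5. It held 1187 called bp in H3.3-HA replicate 1 and 7630 in replicate 2. It had no cKO H3K27ac call and 2443 and 3712 bp of cKO H3K36me3. The next widest, 6603 bp (chr15:36761459-36768061), lay 27654 bp downstream of the start of Ywhaz, a 14-3-3 protein, with 1876 and 6546 H3.3-HA bp. A 6114-bp region stood 7202 bp upstream of Socs3, a feedback inhibitor of cytokine signalling, with 2272 and 5396 H3.3-HA bp. In 9 of the 10 widest regions replicate 2 was the wider call, so these widths rest largely on 1 library. The exception among the 10 widest was a 5337-bp region (chr10:80938285-80943621) 10141 bp downstream of the start of Gadd45b, a stress-induced growth arrest gene, with 5112 bp in replicate 1 and 4259 bp in replicate 2. The other intergenic regions among the 10 were near Bahd1, which encodes a heterochromatin protein (chr2:118895629-118901578, 1956 and 5835 bp), Mymx, a muscle fusion protein gene (chr17:45624807-45630615, 2532 and 5725 bp), and the semaphorin gene Sema4b (chr7:80170099-80175816, 3638 and 5718 bp). None of these last 3 had a call in any cKO library.

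Promoter-TSS windows held 456 regions at 452 nearest genes. Of these, 300 spanned the start site and 85 had their midpoint within 100 bp of it. They lay a median of 5841.5 bp from the nearest WT H3K27ac region, and 83 were over 10 kb from a WT region of either mark. The widest was at Nyap1, a neuronal phosphoprotein that binds phosphoinositide 3-kinase (chr5:137738188-137744637, 6450 bp), with 1679 and 6450 H3.3-HA bp and no cKO call. Inafm2 (chr2:118742773-118748244, 2478 and 5472 bp) and 2310034G01Rik (chr19:46347632-46352991, 1673 and 5360 bp) followed, also with no cKO call. Further down were Nrm, which encodes the nuclear membrane protein nurim (chr17:35858485-35863057, 3184 and 4573 bp), and Ccdc163 (chr4:116707261-116711436, 3154 and 3618 bp), and both were called in the 2 cKO H3K27ac libraries. Nrm had 699 and 1853 called bp there and Ccdc163 1413 and 2174. Grasp, Fam19a3, Pald1 and Cideb, a lipid droplet protein gene, completed the 10 with no cKO call, together with Tiam1, an activator of the GTPase Rac (chr16:90141978-90145870), whose only cKO call was 501 bp in H3K27ac replicate 2. The Tiam1 region was the most remote of the 10, 31619 bp from a WT H3K27ac region and 76850 bp from a WT H3K36me3 region.

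The distance from H3.3-HA-only regions to WT regions continues the rule and was not compared with the rest of the genome, so it is a description. The nearest WT region of either mark was a median of 3328 bp away (quartiles 1171.5 and 10297.5, maximum 935154), that of H3K27ac 5818.5 bp and that of H3K36me3 11602.5 bp. H3K27ac was the nearer mark for 3271 regions (64.4%) and H3K36me3 for 1807. Under 1 kb from a WT region lay 1117 (22.0%), and 1298 (25.6%) lay over 10 kb away. Position changed along this distance. Under 1 kb, 38.1% were intergenic and 13.8% at a promoter, whereas at 10 to 50 kb 55.7% were intergenic and 6.39% at a promoter. The 203 regions at 50 kb or more were 47.8% intergenic, below those at 10 to 50 kb. As a whole, the H3.3-HA-only regions were also farther from the next shared H3.3-HA region than the other shared regions were, with medians of 7331.5 and 3874 bp. Of the H3.3-HA-only regions 544 (10.7% against 5.62%) had no other shared H3.3-HA region within 50 kb.

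**Figure D3:**
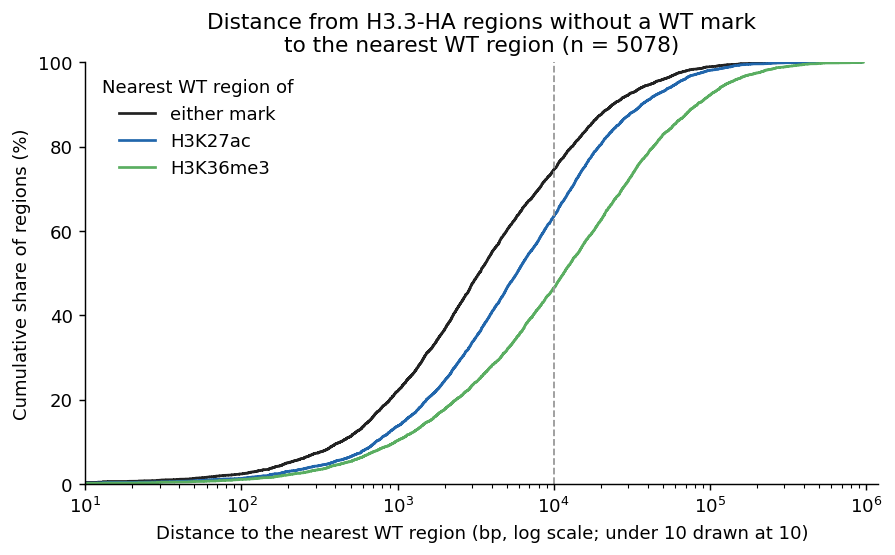
Cumulative share of the 5078 H3.3-HA-only regions (percent) by distance to the nearest WT region of either mark, of H3K27ac or of H3K36me3 (bp, log axis). The dashed line marks 10 kb, beyond which lay 25.6% of the regions for either mark, and the medians were 3328, 5818.5 and 11602.5 bp.

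Intergenic H3.3-HA-only regions were not the remotest of the H3.3-HA regions. Their median distance to a protein-coding start site was 13854 bp, against 18576 bp for the other intergenic shared regions. Within 5 kb of a start lay 564 (22.8% against 19.4%), over 50 kb away 494 (20.0% against 26.1%) and over 100 kb away 235 (9.51% against 13.0%). Upstream of the nearest gene stood 1673 (67.7%). The farthest were 2 regions in the gene desert beside Zeb2, which encodes a zinc finger repressor, 1024575 and 849777 bp upstream of its start. The first (chr2:46140957-46142983, 2027 bp) had 1554 and 1129 H3.3-HA bp and lay 4560 bp from a WT region. The second (chr2:45966153-45968192, 2040 bp) had 1741 and 661 bp and lay 90041 bp from one. A pair 601345 and 585606 bp upstream of Sall3 and 1 region 538255 bp upstream of Klf4, a transcription factor of monocytes and stem cells (chr4:56070324-56071119, 703 and 765 bp), made up the 5 farthest. None of these 5 was called in a cKO library.

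H3.3-HA-only regions occurred on all 20 chromosomes in numbers that followed gene density. They made up between 14.7% (chromosome 12, 162 regions) and 21.04% (chromosome 17, 256 regions) of the shared H3.3-HA regions of a chromosome. Chromosome 11 had the most, 475, and the highest density, 4.0 per Mb, followed by chromosome 19 with 3.04 and chromosome 17 with 2.79. Chromosome X had 44, or 0.269 per Mb, yet these were 18.7% of its 235 shared regions. Across the 20 chromosomes regions per Mb were correlated with coding genes per Mb (Pearson's r 0.853, Spearman's rho 0.908, a description, since the points share the same libraries). All shared H3.3-HA regions were likewise densest on chromosome 11 (19.2 per Mb) and sparsest on X (1.44 per Mb). The H3.3-HA-only share of the shared regions was less closely correlated with coding genes per Mb (r 0.598, rho 0.574). They did not gather at chromosome ends. Within 1 Mb of the centromere side of the sequence lay 34 (0.670%, against 0.962% of the other shared regions) and of the far end 47 (0.926% against 1.27%).

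**Figure D4:**
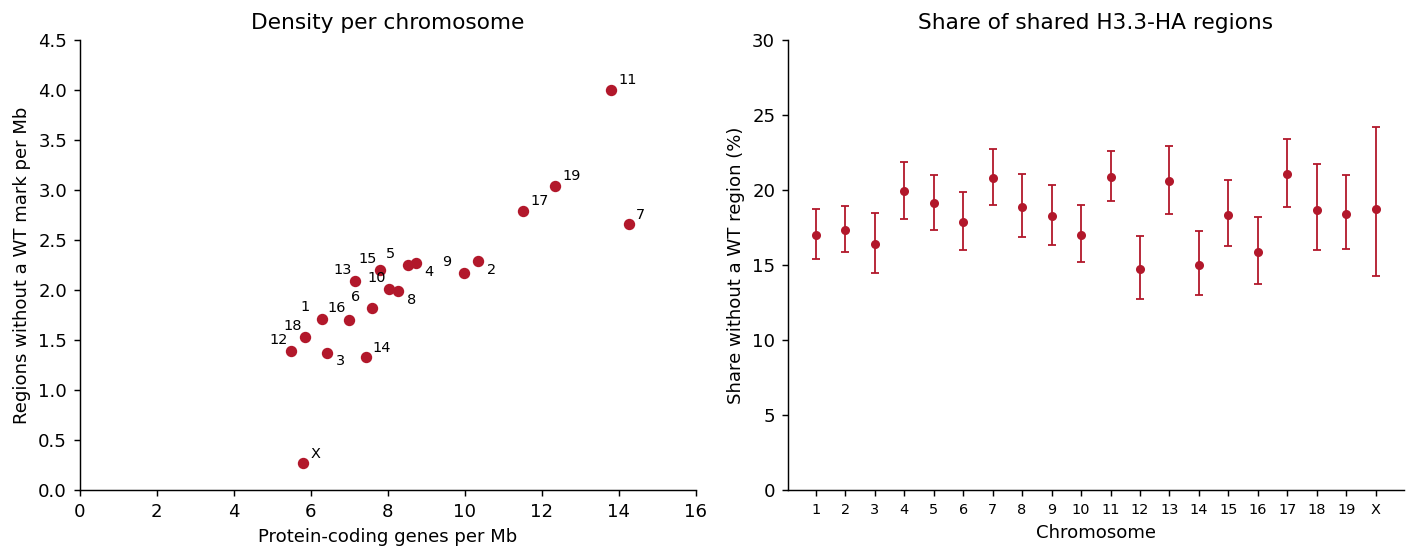
Left, H3.3-HA-only regions per Mb of sequence against protein-coding genes per Mb, 1 point per chromosome, from 0.269 on X to 4.0 on chromosome 11. Right, H3.3-HA-only regions as a share of the shared H3.3-HA regions of each chromosome (percent, 95% Wilson intervals), from 14.7% to 21.04%.

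Of 2645 bins of 1 Mb, 1280 (48.4%) held at least 1 H3.3-HA-only region and 424 held 5 or more. The fullest bin, chr7:19000001-20000000, held 26 among 61 shared regions and 54 coding genes, including Dmpk, the AP-1 gene Fosb, the repair gene Ercc1 and the actin regulator Vasp. The bin chr7:80000001-81000000 held 24 of 86 shared regions in just 23 coding genes, around Sema4b, the protease gene Furin, the helicase gene Blm and Idh2. The other 3 of the top 5 were chr7:127000001-128000000 (20 of 52, with the integrin gene Itgal and Spn, or CD43), chr8:70000001-71000000 (20 of 58, with Jund and Gdf15) and chr11:69000001-70000000 (19 of 42, with Trp53, Kdm6b and Aurkb). Between 1 and 4 regions of each of these bins were called in both cKO H3K27ac libraries.

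By midpoint, 1807 protein-coding genes held an H3.3-HA-only region in their body, 1448 of them a single one and 115 at least 3, and these genes were long (median 54.7 kb against 17.4 kb for all). Chn2, which encodes the Rac GTPase-activating protein beta-chimaerin (chr6:54039554-54301810), held 9 of its 15 shared H3.3-HA regions, 14652 bp in all, and 1 of them was called in both cKO H3K27ac libraries. Tcf7l2, a Wnt pathway transcription factor, held 6 of 7 (11282 bp, none called in both), and Disc1 6 of 7 with 1 called. In Luzp1 and in Smg6, an endonuclease of nonsense-mediated decay, 6 of 8 shared regions were H3.3-HA-only. In Ssh2, a cofilin phosphatase gene, and Rere the count was also 6, out of 18 and 20. Babam2, a subunit of the BRCA1-A complex, held 7 of 14. Tg, the thyroglobulin gene, held 6 of 15, and 4 of its 6 were called in both cKO H3K27ac libraries. Tg spans 1 other coding gene, and which gene these regions belong to was not tested. The largest count, 27, belonged to Gm20388, a 4434.88-kb model on chromosome 8 that spans 71 other coding genes.

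Gene groups were read against the background that 2831 of 21755 coding genes (13.0%) held an H3.3-HA-only region in the body or 5 kb upstream, and 8908 (40.9%) held any shared H3.3-HA region. The lists differed in median gene length, from 3.24 kb for ribosomal protein genes to 1083.77 kb for neuronal adhesion and synapse genes. The macrophage genes had 4.99 kb and all coding genes 17.4 kb, and the part of length in the shares was not tested. All 15 macrophage marker genes held a shared H3.3-HA region, and 3 (20.0%) an H3.3-HA-only one. Only a gene with a shared region can hold an H3.3-HA-only one. Among genes with a shared region, 3 of 15 is a lower share than the 2831 of 8908 over all coding genes, though from few genes and not tested. At Cebpa, a myeloid transcription factor gene, the region (chr7:35118266-35120903, 2638 bp) spanned the start and part of the single exon with 501 and 2638 H3.3-HA bp and lay 129 bp from a WT H3K27ac region. It was called in cKO H3K27ac with 463 and 1124 bp and in cKO H3K36me3 with 0 and 291 bp. At its relative Cebpb (chr2:167685006-167688432, 3427 bp, 1895 and 3427 H3.3-HA bp) the cKO H3K27ac libraries held 0 and 1464 bp. At Csf1r, the receptor for macrophage colony-stimulating factor, a 625-bp region lay upstream of the start and was called in no cKO library.

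Of 44 interferon-stimulated genes 30 held a shared H3.3-HA region and 6 (13.6%) an H3.3-HA-only one, near the 13.0% of all coding genes. Among genes with a shared region, 6 of 30 is a lower share than the 2831 of 8908 over all coding genes. The 6 included the chemokine gene Cxcl10 (chr5:92347648-92349615, 1968 bp, exonic, 640 and 1372 H3.3-HA bp), which had 0 and 501 bp of cKO H3K27ac. Among all 2831 coding genes with an H3.3-HA-only region, 409 had one called in both cKO H3K27ac libraries. Among the 6 interferon-stimulated genes 3 did, which is few genes and was not tested. They were Oas3, which encodes an antiviral oligoadenylate synthetase, Cmpk2, a mitochondrial nucleotide kinase, and Ifit3b. Oas3 (chr5:120779655-120780899) had 514 and 738 bp of cKO H3K27ac and Cmpk2 (chr12:26466519-26467701) 718 and 678. Ifit3b (chr19:34608872-34609620) was covered fully, 749 bp, in both libraries. At Usp18, the protease that removes ISG15, a 1652-bp intronic region (chr6:121249883-121251534) was instead called in both cKO H3K36me3 libraries with 265 and 943 bp.

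Lists of genes of other cell types differed from each other. No region was found among 331 vomeronasal receptor, 57 clustered protocadherin, 6 B cell and 6 erythroid genes, and 4 of 1135 olfactory receptor genes (0.352%) had one, namely Olfr222, Olfr433, Olfr221 and Olfr432. The vomeronasal receptor, clustered protocadherin and erythroid genes held no shared H3.3-HA region at all, so they could hold no H3.3-HA-only one. A shared region was held by only 2 of the 6 B cell genes and 11 of the olfactory receptor genes. Among the granulocyte genes 1 of 10, S100a8, which encodes a calprotectin subunit, had a 633-bp region at its start (chr3:90668622-90669254), 48367 bp from a WT region, with 633 and 501 H3.3-HA bp. Among T cell genes 2 of 8 did, Cd4 and the kinase gene Lck, each with 2 regions, and none of these 4 was called in a cKO library. Flt3 and Batf3 among 6 dendritic cell genes and Pdgfrb among 7 stromal genes held 5 more. Each of these lists shows how few or how many of its genes had a region and no more, since the lists are short and were not tested.

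Of 39 Hox genes 4 had a region, and only 5 held any shared H3.3-HA region. A 1776-bp region beside Hoxb4 (chr11:96314636-96316411, 1403 and 767 H3.3-HA bp) lay 16423 bp from the nearest WT H3K36me3 and 239097 bp from the nearest WT H3K27ac region and was called in no cKO library. A second (chr11:96320974-96322382, 647 and 1409 bp) covered the end of Hoxb4 on the side of Hoxb3 and also had no cKO call. Among 166 developmental transcription factor genes 13 (7.83%) had one, against 21 with any shared region, led by Six5 through the Dmpk region and by Foxp1 with 3 intronic regions. Of 394 Zfp zinc finger genes 42 (10.7%) had one, with 4 each in Zfp609 and Zfp652. In 2 of 38 neuronal adhesion and synapse genes, Nrxn2 and Dlg2, and in 9 of 94 voltage-gated potassium channel genes, Kcnip3 and Kcnq1 among them, regions were also found. Ribosomal protein genes were low, 4 of 77 (5.19%), at Rps2, Rpl11, Rpl27 and Rps14, although 66 of the 77 held a shared H3.3-HA region. These genes are short, with a median of 3.24 kb against 17.4 kb for all coding genes.

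Base composition differed little from the other H3.3-HA regions at the median, while CpG-rich sequence was more frequent. In the 500 bp at the centre the median G and C content was 46.2% against 44.8% in the other shared regions and 41.6% in 500-bp tiles of the whole genome. Windows masked as repeats over at least 50% of their length made up 10.6% (539 regions) against 10.1%, both below the 25.1% of tiles. The tiles count all sequence without gaps, whether or not reads can be placed there. How well the 25-bp read pairs can be placed in repeats was not tested. CpG-rich windows (observed over expected CpG of at least 0.6 with at least 50% G and C) were few, 103 (2.03%) against 1.05%, and 48 of them were at promoters, where they made up 10.5% against 8.74% for the other promoter regions. In shared regions with H3K27ac alone CpG-rich windows made up 1.55%, and 12.1% at promoters. The other 408 promoter regions of the H3.3-HA-only set were not CpG-rich by this measure.

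Motif matches on either strand of the same 500-bp windows were counted as letters only. The PU.1 consensus GAGGAAGT, the factor that sets up macrophage enhancers, occurred in 503 regions (9.91%, 9.11 to 10.8), against 7.49% (7.16 to 7.85) of the other shared regions and 3.01% of tiles. In shared regions with H3K27ac alone the share was 9.43%. The AP-1 site TGANTCA occurred in 950 (18.7%), near the 19.1% of the other regions and above the 14.3% of tiles. The core of the CTCF consensus, bound by the insulator protein of that name, occurred in 43 (0.847%, 0.629 to 1.14) against 0.434% and 0.241%, and 26 of the 43 were intergenic. The widest of them, the 3396-bp region upstream of Comtd1 (chr14:21852124-21855519), had 641 and 3396 H3.3-HA bp and no cKO call. The GC box GGGGCGGG occurred in 148 (2.91%, 2.49 to 3.41) against 2.05%, and in 2.38% (2.13 to 2.66) of shared regions with H3K27ac alone. Shares close to those of the other shared regions were found for the C/EBP motif TTGCNNAA (21.5% against 21.3%), the interferon response motif GAAANNGAA (17.0% against 18%), the runt motif TGTGGTTT (4.82% in both) and the E-box CACGTG (6.50% against 6.11%). A tandem run of telomere units occurred in 1 region, and how well reads can be placed in such repeats was not tested. Some of these motifs share letters, and a window could count for several.

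Libraries labelled cKO were not used in the choice, and asked whether a mark was called at these places in H3.3 cKO cells. Region calls of H3K27ac overlapped 714 of the 5078 (14.1%) in replicate 1 and 1156 (22.8%) in replicate 2. In both replicates 556 were called (10.9%, 10.1 to 11.8), beside 42.5% of all shared H3.3-HA regions. For H3K36me3 the numbers were 93 (1.83%) and 257 (5.06%), with 73 called in both (1.44%, 1.14 to 1.80) beside 25.6% of all shared regions. In none of the 4 cKO libraries was a region called at 3588 (70.7%, against 15.6% of the other shared regions). The share called was lower than at the other shared regions in 4 of 4 libraries, with differences of -41.7 and -40.5 percentage points for H3K27ac and -30.5 and -38.7 for H3K36me3. The mean over the libraries, 2 of each mark, was -37.8 points (SD 5.07, n = 4 libraries). A two-sided exact permutation test over libraries gave p = 0.125, the smallest p that 4 libraries allow. Weighted to the widths of the H3.3-HA-only regions the mean was -31.2 points. By mark the unweighted mean was -41.1 points for H3K27ac and -34.6 for H3K36me3, and 2 libraries allow no p under 0.5. The SD of 5.07 therefore also holds the difference between the marks. This design cannot reach 0.05. The classes were chosen by WT calls of the same 2 marks in the same cell type. The rule itself therefore favours a lower share here, and the test adds no support for it. The cKO calls mostly covered a minor part of a region, with a median of 44.2% and 48.6% of its width for H3K27ac and 25.3% and 39.5% for H3K36me3.

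**Figure D5:**
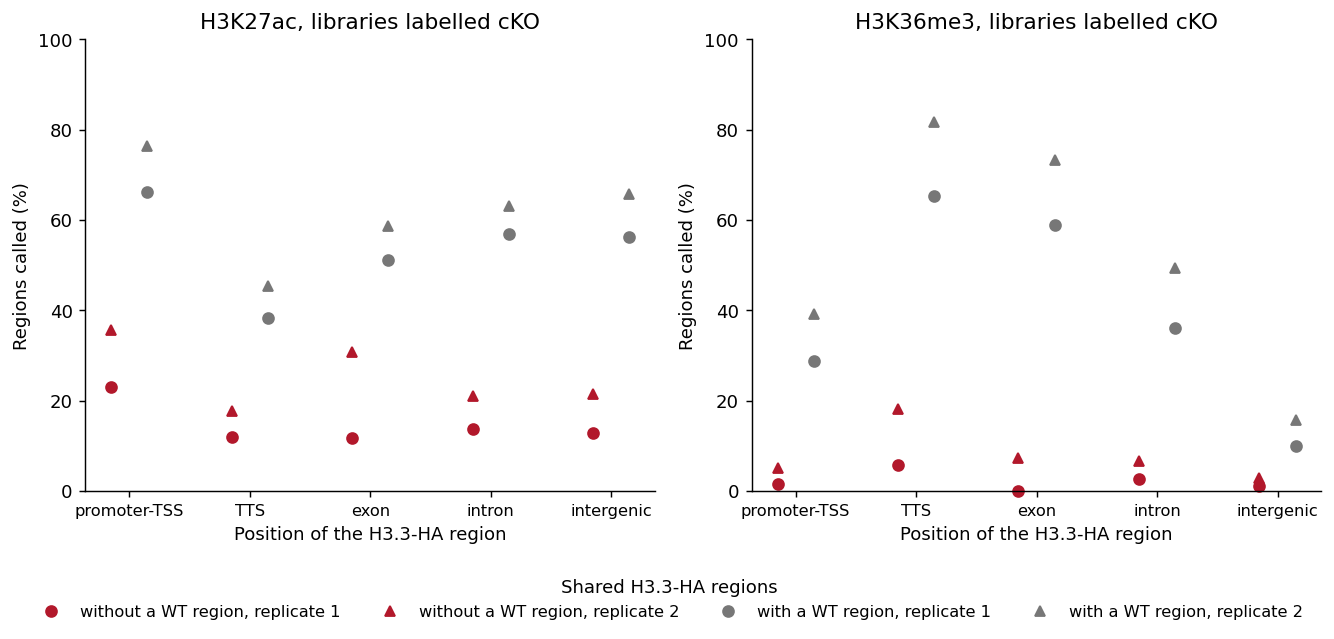
Share of shared H3.3-HA regions overlapped by a region of each cKO library (percent), by position and for regions without (red) and with (grey) a WT region, with circles for replicate 1 and triangles for replicate 2. The red points lie below the grey points in each position and for both marks, and for H3K27ac are highest at promoter-TSS, 23.0% and 35.7%.

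By position, the promoter-TSS regions were called most often for H3K27ac in both cKO libraries, 93 of 456 (20.4%, 17.0 to 24.3), against 255 of 2470 intergenic ones (10.3%, 9.18 to 11.6) and 183 of 1840 intronic ones (9.95%, 8.66 to 11.4). Promoter regions were above intergenic ones in each replicate, 23.0% against 12.96% in replicate 1 and 35.7% against 21.6% in replicate 2, while exonic regions had 11.8% and 30.9%. The other shared regions showed the same pattern at higher shares, 61.9% at promoters, 51.4% intergenic and 49.9% intronic. Start sites of all coding genes were also called more often in these libraries, 31.8% and 38.2%, than in WT, 28.8% and 27.6%, and the part of this difference in the promoter result was not tested. For H3K36me3, TTS regions led with 9 of 176 (5.11%, 2.71 to 9.43), as they did among the other shared regions (64.6%), and 0 of 136 exonic regions were called in both (95% Wilson upper bound 2.75%). The cKO H3K36me3 replicates differed in their calls, since 19.3% and 46.5% of tags fell in regions, and calls in both are limited by replicate 1.

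Calls in the cKO libraries were more frequent close to WT regions of the same mark. Of the 695 regions under 1 kb from a WT H3K27ac region, 148 (21.3%) were called in both cKO H3K27ac libraries, against 113 of 1506 (7.50%) at 10 to 50 kb. Of the 523 under 1 kb from a WT H3K36me3 region, 39 (7.46%) were called in both cKO H3K36me3 libraries, against 9 of 1847 (0.487%) at 10 to 50 kb. Width moved with the calls too, from 149 of 1773 regions under 1 kb (8.40%) to 134 of 775 at 2 to 5 kb (17.3%). Of the 103 CpG-rich regions 25 (24.3%, 17.0 to 33.4) were called for H3K27ac in both, against 10.7% of the rest. Chromosome 11, which held the most H3.3-HA-only regions, had only 27 of 475 (5.68%) called in both.

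The widest H3.3-HA-only regions called in both cKO H3K27ac libraries were those of Socs3, with 501 and 661 bp, and of Gadd45b, with 1145 and 1002 bp, described above. They were followed by a 5089-bp region 3624 bp upstream of Zfp516 on chromosome 18 with 366 and 281 bp. At Abtb2 (chr2:103669449-103674477, 2930 and 5029 H3.3-HA bp) both libraries held 501 bp, the width of the narrowest regions in these lists. Longer calls were found at Lrrc28 (chr7:67544745-67549769), with 799 and 1946 bp, and above all at Nod2, the intracellular sensor of bacterial muramyl dipeptide. The Nod2 region (chr8:88665929-88670182, 4254 bp, intronic) had 3401 and 3850 H3.3-HA bp 2534 and 1726 bp of cKO H3K27ac and 0 and 501 bp of cKO H3K36me3, and lay 6 bp from a WT H3K36me3 region. A region 14417 bp upstream of the receptor gene Notch2 (chr3:97996699-98001522, 3515 and 3147 H3.3-HA bp) had 501 and 1002 bp, and stood 964 bp from WT H3K27ac. Unc13a, a synaptic vesicle priming gene (chr8:71666888-71671642), had 632 and 730 bp, Ccdc63 (chr5:122128075-122132502) had 627 and 1162 bp, and Nrm is given above. In all, 48 regions were covered fully in replicate 1 and 119 in replicate 2.

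Regions called in both cKO H3K36me3 libraries, 73 in all, lay a median of 691 bp from a WT region, and 50.7% were intronic and 12.3% at a TTS. After Dmpk the widest was a 4991-bp region 3250 bp downstream of the start of Csf2ra, the receptor for granulocyte-macrophage colony-stimulating factor (chr19:61219745-61224735), with 3596 and 3540 H3.3-HA bp and 743 and 1448 bp of cKO H3K36me3. It lay 33632 bp from WT H3K36me3. Several others stood close to WT H3K36me3, beyond the start of a named gene. A region 2938 bp from the start of Actg1, gamma-actin (chr11:120342026-120346052), lay 381 bp from WT H3K36me3 and had 1189 and 1681 bp. One 4992 bp from the start of Jun, an AP-1 subunit (chr4:95045684-95048777, 2879 and 2961 H3.3-HA bp), lay 383 bp from it and had 624 and 576 bp. One beyond Mrc1, the macrophage mannose receptor (chr2:14335255-14338087), lay 358 bp away and had 501 and 614 bp. Arhgap30, through an intron of Nectin4 (chr1:171379049-171383188, 771 and 2574 bp), Dmwd (922 and 1059 bp) and the mitotic kinase gene Aurkb (68 and 1022 bp) were also among the 10 widest. None of these named regions was called in a cKO H3K27ac library.

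Called in all 4 cKO libraries were 16 regions (0.315%), against 3284 of the other shared regions (14.6%). The widest were near Ier5, an immediate early gene (chr1:155093502-155096361), with 1196 and 1097 bp of H3K27ac and 97 and 359 bp of H3K36me3, and at the end of Vps8, with 631 and 2077 bp and 501 and 1685 bp. Most complete was a 1503-bp region 5169 bp from the start of Ly6a, which encodes the stem cell antigen Sca-1 (chr15:74991714-74993216). It was covered fully in both H3K27ac libraries and over 790 and 1503 bp in the H3K36me3 libraries, with 1503 and 1156 H3.3-HA bp. A 1349-bp region (chr6:17593582-17594930) upstream of Capza2, an actin capping protein, was likewise covered fully in both H3K27ac libraries and over 701 and 1349 bp for H3K36me3. An intronic region of H2afz, the histone variant H2A.Z gene (chr3:137865155-137866334), had 692, 1180, 490 and 620 bp in the order of the libraries. Other members of the 16 lay at Capg, Arpc3, Anxa5 and Csk, of which Capg and Arpc3 also act on actin, and at Midn, Def6, Ccdc32, Rin3, Snx30, Spryd7 and Lias.

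A gain of a mark in cKO cells cannot be read from these calls, because the rule sets WT to 0. The reverse choice gave a larger number. Of the 27642 shared H3.3-HA regions 7106 (25.7%) had no region in any of the 4 cKO libraries, and among them 2080 (29.3%) were called in both WT H3K27ac libraries and 265 (3.73%) in both WT H3K36me3 libraries, against 10.9% and 1.44% in the direction described above. The groups also differed in the share of tags that fell in H3K27ac regions, 24.1% and 21.5% in WT and 11.8% and 17.8% in cKO. The H3K27ac lists covered 89.6 and 74.8 Mb in WT and 46.2 and 62.0 Mb in cKO. Those of H3K36me3 covered 163.4 and 170.3 Mb in WT and 90.6 and 163.3 Mb in cKO. The part of these differences in the asymmetry was not tested. Of the reverse set 43.5% were intergenic, against 48.6% of the H3.3-HA-only regions.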

How the data were processed

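Regions from 10 CUT & RUN libraries were used, and 5 IgG samples only as the callers' control. Per the study's methods the authors used Bowtie2 (local mode) to align 25-bp read pairs to mm10, and HOMER to call regions, which the file headers show to be in histone style, with peaks of 500 bp at least 4-fold over IgG, and for each replicate alone. The deposited lists give each region's start and end in bp, with no height or count, and each genotype had an IgG control of its own. Replicates and groups came from the labels. Regions were merged, overlapped and measured with Python 3.11.15, numpy 2.4.6 and pandas 2.3.3, with 1-based coordinates, GENCODE M21 genes and the GRCm38 sequence, and the overlap code was tested on simulated data. The midpoint decided a region's class, taken in turn as promoter-TSS, TTS (100 bp upstream to 1 kb downstream of a gene end), exon, intron and intergenic. The distance to a gene is that from the midpoint to the nearest start of a protein-coding transcript. Shares carry 95% Wilson intervals. The only test was an exact permutation test over the 4 cKO libraries (sign changes of their differences). The study's differential test needs read counts, which the lists do not hold.

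The regions, gene lists and tests were chosen with earlier results of these data known. Named were the 10 genes with most regions, the 10 widest regions, the 10 widest at promoters, the 5 farthest from a start, the 10 widest called in both cKO libraries of a mark, the 5 fullest 1-Mb bins, the 3 nearest to either side of the rule, and listed genes with a region (the 5 with most length where there were more). The 16 regions called in all 4 cKO libraries, and the Comtd1 window around the CTCF match, were added after values were seen. The sequence of 1 further region picked by the rule is not reported here. Alternatives for the overlap, the WT replicates, the width, the annotation and each library are given in the closing section.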

Additional observations from a re-analysis of the deposited data

How the results depend on the processing

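Of 101 alternative values 54 were labelled as moved, by limits that differed between results. For shares the limit was the 95% Wilson interval of the main value, which holds counting error only. For the median width it was the SD of the 2 replicates' median called H3.3-HA bases, 60.5 bp. None of the 16 alternatives for the difference in cKO calls was labelled as moved. The exact permutation test gave p = 0.125 or 0.25 for each, so the test could not separate them. In each, the classes were also chosen by WT calls of the same marks. The difference in cKO calls between H3.3-HA-only and other shared regions ran from -41.0 to -31.2 points over its 16 alternatives, and from -40.3 to -34.6 without single libraries. The number of regions depended on the rule. It was 8918 where a WT region had to cover 50% of a region, 8250 where both WT replicates of a mark had to overlap it, 900 with H3.3-HA regions of at least 1 kb only, and between 5233 and 14071 without single libraries, the highest being 14071 and 13752 without H3.3-HA replicate 1 or 2.

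In the order 50% coverage, no WT region within 1 kb, both WT replicates, regions of at least 1 kb and bases called in both H3.3-HA replicates, the intergenic share was 45.1%, 51.6%, 44.1%, 53.0% and 47.0% (39.6% with all genes, 45.0% to 47.9% without single libraries), and the share over 10 kb from a WT region 14.6%, 32.8%, 15.7%, 24.0% and 20.2% (21.7% to 27.99%). Calls in both cKO H3K27ac libraries made up 18.9%, 9.16%, 18.2%, 17.2% and 9.90% (4.61% where calls had to cover 50% of the region, 7.38% to 22.8% without single libraries). For H3K36me3 the first 4 were 5.65%, 0.757%, 3.53% and 2.11% (0.295% with 50% covered, 1.21% to 5.06%). The promoter-TSS share moved to 7.62% with the 1-kb margin, 7.44% with regions of at least 1 kb and 11.1% with all genes (7.05% to 10.9%). The median width moved to 1422 bp with 50% coverage, 1253.5 bp with both WT replicates, 2073 bp with regions of at least 1 kb and 504 bp for bases in both replicates (632 to 1223 bp). The low widths, 650 and 632 bp, came without H3.3-HA replicate 1 or 2, and the high cKO shares, 22.8% and 5.06%, without replicate 1 of that mark. The cKO H3K36me3 share was 2.71% without WT H3K36me3 replicate 2. The cause was not tested. No paired analysis was possible because WT libraries hold no region here by the rule, and the test compares classes of regions within each library.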
